A study of Homo sapiens with 12 samples.

Results

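The thioredoxin and peroxiredoxin system was examined as 10 genes, taken by symbol from the 57815 genes listed for each library. They comprised the thioredoxins TXN and TXN2, the thioredoxin reductases TXNRD1 and TXNRD2, the sulfiredoxin SRXN1 and the peroxiredoxins PRDX1, PRDX2, PRDX3, PRDX5 and PRDX6. All 10 were found in all 12 libraries. RNA had been sequenced from 3 human lung cancer lines of the non-small cell type that carry a KEAP1 mutation, namely A549 and H2023 (lung adenocarcinoma) and H460 (large cell carcinoma). Each line was transfected with control siRNA or with siRNA directed at NRF2, the transcription factor encoded by NFE2L2, and was harvested 48 h after transfection. Each of the 6 groups held 2 libraries. The control libraries of a line were biological duplicates, whereas its NRF2 siRNA libraries were made with different siRNAs, number 28 and number 30, so that the spread within an NRF2 siRNA group included the difference between the siRNAs. A549 RNA was depleted of ribosomal RNA and the other lines were selected for polyA RNA, so that line and protocol cannot be told apart for A549, and its levels were not tested against the other lines.

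Thioredoxins are small proteins that reduce disulfides in other proteins, and thioredoxin reductases, which are selenoproteins, recharge them with electrons from NADPH. Peroxiredoxins reduce peroxides and most of them are recharged by thioredoxin. When a peroxiredoxin is overoxidised, sulfiredoxin can restore it. TXN and TXNRD1 serve the cytosol and nucleus, and TXN2 and TXNRD2 serve mitochondria. KEAP1 targets NRF2 for degradation, so that NRF2 accumulates when KEAP1 is mutated, and NRF2 with a small MAF partner binds antioxidant response elements beside genes of redox defence.

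On GRCh37, TXN lies at chr9:113006090-113018787 on the minus strand and TXN2 at chr22:36863093-36877687 on the minus strand. TXNRD1 lies at chr12:104609557-104744085 on the plus strand and TXNRD2 at chr22:19863040-19929343 on the minus strand. SRXN1 lies at chr20:627259-633844 on the minus strand, overlapped by a longer gene of the same strand (ENSG00000270299) that was listed at 0.657 FPKM or less. FPKM denotes a level scaled to transcript length and to the size of the library. PRDX1 (chr1:45976586-46008404, minus) and PRDX6 (chr1:173446469-173457954, plus) share a chromosome, whereas PRDX2 (chr19:12907634-12912614, minus), PRDX3 (chr10:120927232-120938324, minus) and PRDX5 (chr11:64085593-64089283, plus) lie apart. All 10 are protein-coding genes, and each value covers the whole gene.

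RefSeq promoter windows (GRCh38.p14) reaching from 250 bases before to 50 bases after a start site were at hand for 7 of the 10 genes, in 11 windows. They were searched on both strands for TGACNNNGC, the core of the antioxidant response element, and for TGANTCA, the AP-1 motif, which can share bases with the former. Among all 35116 promoter windows, 13.3% held TGACNNNGC and 7.71% held TGANTCA. TXNRD1 was the gene of the 7 with a match, with 2 copies of TGACNNNGC in one window and 1 in its other window, and no window of the 7 genes held TGANTCA. In the window printed below, TGACTTCGC began at -99 on the strand of the gene and TGACGGAGC lay on the opposite strand, where its printed complement began at -8. These 4 windows are shown because the first 3 belong to the genes that fell most and the last to the mitochondrial counterpart of TXNRD1. Capitals mark a match to TGACNNNGC on either strand.
TXNRD1, chr12:104215529-104215828, plus strand: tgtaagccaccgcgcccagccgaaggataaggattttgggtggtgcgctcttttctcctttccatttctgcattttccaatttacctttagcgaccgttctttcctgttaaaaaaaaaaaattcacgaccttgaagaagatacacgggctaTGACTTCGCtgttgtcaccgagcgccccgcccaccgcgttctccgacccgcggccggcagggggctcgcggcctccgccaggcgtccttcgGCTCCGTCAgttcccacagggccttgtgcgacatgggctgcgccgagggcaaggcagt
SRXN1, chr20:653151-653450, minus strand: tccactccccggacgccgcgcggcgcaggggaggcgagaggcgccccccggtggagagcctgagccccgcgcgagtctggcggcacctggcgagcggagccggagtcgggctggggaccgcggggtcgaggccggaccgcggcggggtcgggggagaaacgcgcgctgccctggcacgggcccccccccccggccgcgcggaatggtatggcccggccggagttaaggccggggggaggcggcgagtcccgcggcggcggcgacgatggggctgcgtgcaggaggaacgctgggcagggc
TXN, chr9:110256458-110256757, minus strand: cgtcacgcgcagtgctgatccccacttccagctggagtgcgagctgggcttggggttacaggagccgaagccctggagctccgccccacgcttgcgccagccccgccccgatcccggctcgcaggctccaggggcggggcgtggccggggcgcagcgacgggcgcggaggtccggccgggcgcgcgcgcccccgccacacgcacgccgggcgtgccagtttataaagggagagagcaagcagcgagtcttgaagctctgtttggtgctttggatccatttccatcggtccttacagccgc
TXNRD2, chr22:19941769-19942068, minus strand: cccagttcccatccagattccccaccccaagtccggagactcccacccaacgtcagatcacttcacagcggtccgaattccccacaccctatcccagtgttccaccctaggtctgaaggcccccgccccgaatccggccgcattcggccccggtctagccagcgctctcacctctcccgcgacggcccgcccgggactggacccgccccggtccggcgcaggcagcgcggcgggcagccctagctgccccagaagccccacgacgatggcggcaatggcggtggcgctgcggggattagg
A match describes the letters in a window, not binding, and a window without one says nothing about elements elsewhere. TXN2, PRDX1 and PRDX6 were not in the table.

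The targeted gene followed its labels in all 3 lines. NFE2L2 stood at 19.0%, 6.10% and 7.68% of the control mean in A549, H2023 and H460 NRF2 siRNA libraries, with adjusted p of 0.0178, 0.00529 and 0.0111 (limma). Sequencing depth relative to the control library numbered 0 of the same line, read from the steps of low FPKM values, was 92.0% to 106%. Between 12732 and 13909 genes reached 1 FPKM per library. KRT8 was at 553 FPKM or more and KRT18 at 298 FPKM or more in every library, whereas EPCAM and CDH1 reached at most 1.19 FPKM in H460. The lung lineage markers NKX2-1, SFTPB and NAPSA summed to 0 to 1.41 FPKM over all libraries. The leukocyte and fibroblast markers PTPRC, COL1A1 and COL1A2 summed to 0.459 to 8.08 FPKM. That sum was 1.81 and 2.07 FPKM in H460 control and 6.34 and 5.88 FPKM in H460 NRF2 siRNA libraries, nearly all of it COL1A1, which was called higher in H460, at 304% of its control mean (adjusted p = 0.0329). The 5 epithelial markers summed to 2547 and 2129 FPKM in H2023 control and to 5273 and 4624 FPKM in H2023 NRF2 siRNA libraries, and to 1142 and 1336 FPKM in H460 control and 1743 and 2606 FPKM in H460 NRF2 siRNA libraries, nearly all of it keratins. CDH1, which encodes E-cadherin, was the epithelial marker called in H2023, at 598% of its control mean (adjusted p = 0.0280). Transcripts encoded by mitochondrial DNA took 8.56% and 13.1% of the FPKM sum in H460 control and 20.8% and 26.0% in H460 NRF2 siRNA libraries. The part of these shifts in the results below was not tested, apart from a recalculation without mitochondrially encoded genes. With bulk RNA, a lower level cannot be told apart from fewer cells that carry the transcript.

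To learn which parts of the system depended on NRF2, NRF2 siRNA was compared with control siRNA in each line. TXN, TXNRD1 and SRXN1 fell in all 3 lines. PRDX1 fell past the threshold in H460, where PRDX5 rose. TXN2, TXNRD2, PRDX2, PRDX3 and PRDX6 passed in no line, PRDX2 being tested in H2023 and H460 only. Of the 9 genes tested in A549, 3 were lower and 0 higher at an adjusted p under 0.05, against 0.554% and 0.122% of all 13898 genes tested. In H2023, 3 of 10 were lower and 0 higher, against 0.583% and 0.327% of 14059 genes. In H460, 4 of 10 were lower and 1 higher, against 6.86% and 7.12% of 13446 genes. At an unadjusted p under 0.05, 6 genes of the system differed in each line, against 13.3%, 16.9% and 33.7% of all genes in A549, H2023 and H460, PRDX5 being the one that was higher in A549 and TXNRD2 the one that was higher in H2023. The median difference over the tested members was -0.41, -0.43 and -0.55 on the log2(FPKM + 1) scale in A549, H2023 and H460, whereas the median over all genes tested was 0.02, 0.02 and -0.01.

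**Figure D1:**
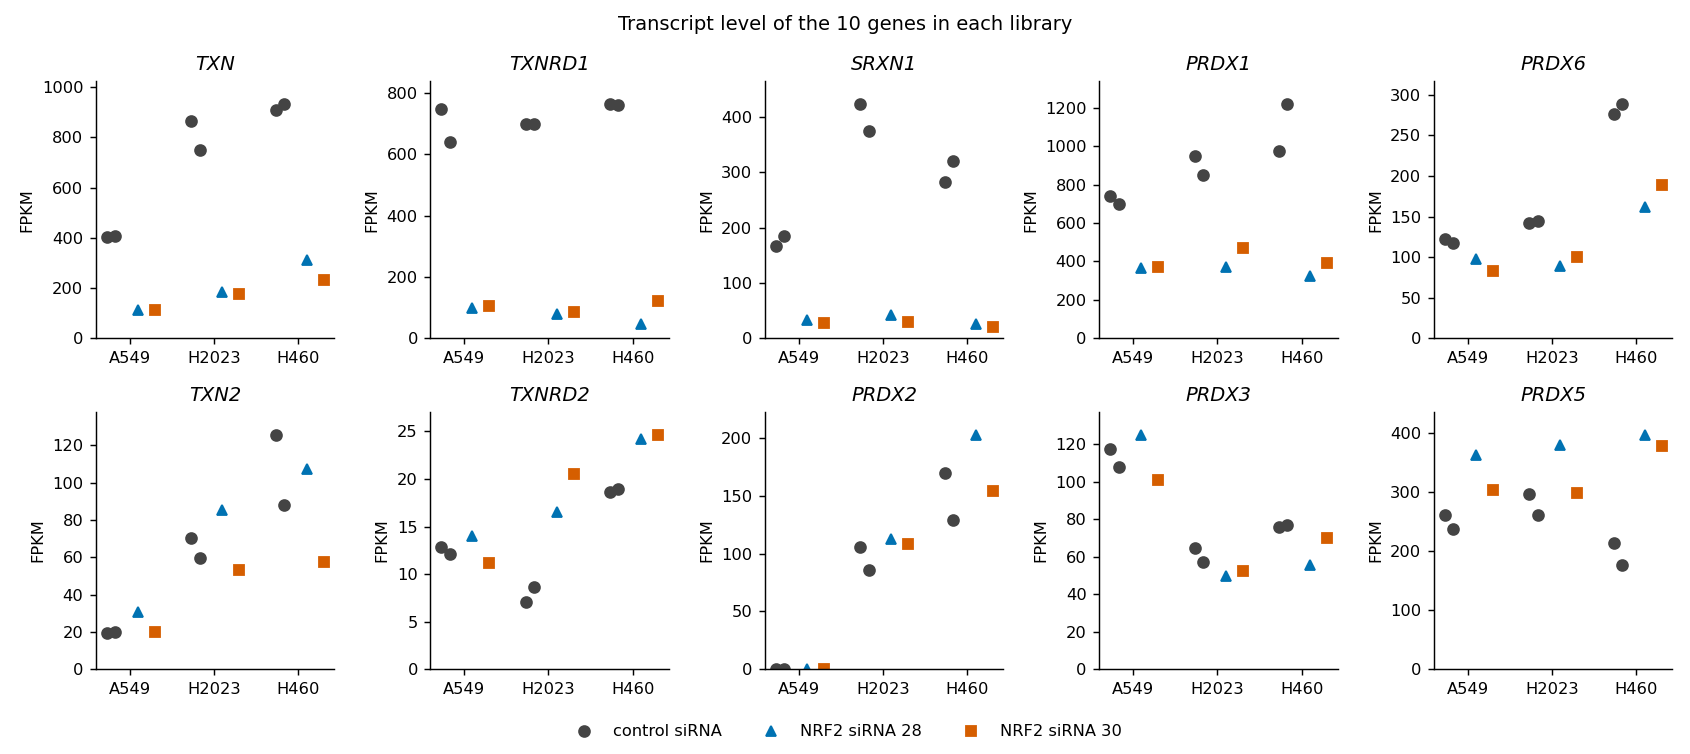
FPKM of the 10 genes in each library (y axis, from 0) for A549, H2023 and H460 (x axis), with grey circles for the control siRNA libraries, blue triangles for siRNA 28 and orange squares for siRNA 30. TXN, TXNRD1, SRXN1, PRDX1 and PRDX6 were lower in both NRF2 siRNA libraries than in both control libraries of every line, PRDX5 was higher, and PRDX2 was listed at or near 0 in A549.

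TXN, the cytosolic thioredoxin, stood at 405 and 408 FPKM in the A549 control libraries and at 115 and 113 FPKM with siRNA 28 and siRNA 30. In H2023, TXN was at 864 and 747 FPKM with control siRNA and at 184 and 178 FPKM with siRNA 28 and 30. The H460 values were 910.0 and 931 FPKM with control siRNA and 313 and 231 FPKM with siRNA 28 and 30. Every NRF2 siRNA library was thus below both control libraries of its line. TXN retained 28.02% of its control mean in A549, 22.5% in H2023 and 29.5% in H460. The log2 differences were -1.83 ± 0.13 (SE), -2.15 ± 0.16 and -1.77 ± 0.26, with adjusted p of 0.00554, 0.0151 and 0.0188.

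TXN2, the mitochondrial thioredoxin, stood at 19.6 and 20.2 FPKM in A549 control libraries and at 30.9 and 19.9 FPKM with siRNA 28 and 30. In H2023, TXN2 was at 70.6 and 59.7 FPKM with control siRNA and at 85.4 and 53.2 FPKM with siRNA 28 and 30. In H460 the values were 125 and 87.8 FPKM with control siRNA and 107 and 57.5 FPKM with siRNA 28 and 30. The groups overlapped in all 3 lines, and the siRNA 28 library held the higher level of the pair each time. The log2 differences were 0.30 ± 0.22 (SE), 0.05 ± 0.26 and -0.41 ± 0.35 in A549, H2023 and H460, with adjusted p of 0.621, 0.944 and 0.449.

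TXNRD1, the cytosolic thioredoxin reductase, stood at 746 and 641 FPKM in A549 control libraries and at 98.2 and 105 FPKM with siRNA 28 and 30. In H2023, TXNRD1 was at 699 and 698 FPKM with control siRNA and at 80.8 and 86.9 FPKM with siRNA 28 and 30. In H460, TXNRD1 was at 762 and 761 FPKM with control siRNA and at 46.8 and 121 FPKM with siRNA 28 and 30. The control levels of the lines were alike, and the H460 siRNA libraries lay farthest from each other. TXNRD1 retained 14.7%, 12.005% and 11.01% of its control mean in A549, H2023 and H460. The log2 differences were -2.75 ± 0.15 (SE), -3.04 ± 0.15 and -3.32 ± 0.43, with adjusted p of 0.00294, 0.00529 and 0.0162.

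TXNRD2, the mitochondrial reductase, was lower than its controls in no line. In A549, TXNRD2 was at 12.8 and 12.2 FPKM with control siRNA and at 14.0 and 11.2 FPKM with siRNA 28 and 30, and the groups overlapped. In H2023, TXNRD2 was at 7.02 and 8.69 FPKM with control siRNA and at 16.5 and 20.5 FPKM with siRNA 28 and 30. In H460, TXNRD2 was at 18.7 and 19.0 FPKM with control siRNA and at 24.2 and 24.6 FPKM with siRNA 28 and 30. H2023 and H460 values did not overlap, with the NRF2 siRNA libraries at 235% and 129.6% of the control mean. The log2 differences of 0.00 ± 0.16 (SE), 1.14 ± 0.22 and 0.36 ± 0.22 had adjusted p of 0.995, 0.106 and 0.301. The H2023 value passed the threshold when the variance was estimated over all 12 libraries, with an adjusted p of 0.00744.

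SRXN1, the sulfiredoxin, showed the most negative log2 difference of the system in H2023 and H460. In A549, SRXN1 was at 168 and 185 FPKM with control siRNA and at 33.1 and 27.0 FPKM with siRNA 28 and 30. In H2023, SRXN1 was at 423 and 375 FPKM with control siRNA and at 41.6 and 29.9 FPKM with siRNA 28 and 30. In H460, SRXN1 was at 282 and 320.4 FPKM with control siRNA and at 25.9 and 21.1 FPKM with siRNA 28 and 30. No groups overlapped. SRXN1 retained 17.0%, 8.96% and 7.80% of its control mean in A549, H2023 and H460. The log2 differences were -2.52 ± 0.16 (SE), -3.46 ± 0.21 and -3.63 ± 0.22, with adjusted p of 0.00338, 0.00805 and 0.00448.

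PRDX1, an abundant cytosolic peroxiredoxin, stood at 739 and 697 FPKM in A549 control libraries and at 368 and 369 FPKM with siRNA 28 and 30. In H2023, PRDX1 was at 947 and 851 FPKM with control siRNA and at 372 and 471 FPKM with siRNA 28 and 30. In H460, PRDX1 was at 976 and 1217 FPKM with control siRNA and at 325 and 392 FPKM with siRNA 28 and 30. The NRF2 siRNA libraries of the 3 lines lay close together, below every control library. PRDX1 retained 51.4%, 46.9% and 32.7% of its control mean in A549, H2023 and H460. The log2 differences were -0.96 ± 0.14 (SE), -1.10 ± 0.19 and -1.61 ± 0.27, with adjusted p of 0.0712, 0.0878 and 0.0215. The A549 value passed the threshold after median centring (adjusted p = 0.0410) but not without mitochondrially encoded genes (adjusted p = 0.0865), and the H2023 value passed in the fit of 12 libraries (adjusted p = 0.0102). PRDX1, PRDX2, PRDX3 and TXN have processed pseudogenes, and how reads that match both were assigned is not given in the sources used here, so that their levels are less certain.

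PRDX6, a peroxiredoxin that takes electrons from glutathione rather than thioredoxin, stood at 122 and 118 FPKM in A549 control libraries and at 98.1 and 83.1 FPKM with siRNA 28 and 30. In H2023, PRDX6 was at 142 and 144 FPKM with control siRNA and at 88.8 and 99.7 FPKM with siRNA 28 and 30. In H460, PRDX6 was at 277 and 288 FPKM with control siRNA and at 162 and 189 FPKM with siRNA 28 and 30. PRDX6 was below both controls in all 6 NRF2 siRNA libraries, at 75.5%, 65.8% and 62.2% of the control mean. No line passed the threshold on its own, with adjusted p of 0.326, 0.1603 and 0.0837 for log2 differences of -0.41 ± 0.14 (SE), -0.60 ± 0.15 and -0.69 ± 0.22. The H460 value passed in the fit of 12 libraries (adjusted p = 0.00654), in which 17.8% of all genes were called lower in H460. With siRNA 28 alone against the controls, the log2 differences were -0.29, -0.68 and -0.80 in A549, H2023 and H460. With siRNA 30 alone they were -0.52, -0.52 and -0.58.

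PRDX5, a peroxiredoxin found in mitochondria, peroxisomes and cytosol, was higher in the NRF2 siRNA libraries. In A549, PRDX5 was at 261 and 237 FPKM with control siRNA and at 363 and 305 FPKM with siRNA 28 and 30. In H2023, PRDX5 was at 297 and 261 FPKM with control siRNA and at 379 and 299 FPKM with siRNA 28 and 30. In H460, PRDX5 was at 214 and 176 FPKM with control siRNA and at 397 and 378 FPKM with siRNA 28 and 30. The groups did not overlap in any line, although in H2023 the siRNA 30 library exceeded the higher control by only a small margin. The log2 difference of 0.99 ± 0.23 (SE) in H460 passed the threshold (adjusted p = 0.0400), whereas 0.42 ± 0.16 in A549 (adjusted p = 0.351) and 0.27 ± 0.19 in H2023 (adjusted p = 0.517) did not.

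PRDX3, the mitochondrial peroxiredoxin, stood at 117 and 108 FPKM in A549 control libraries and at 125 and 101 FPKM with siRNA 28 and 30. In H2023, PRDX3 was at 64.6 and 57.3 FPKM with control siRNA and at 49.6 and 52.2 FPKM with siRNA 28 and 30. In H460, PRDX3 was at 75.9 and 76.9 FPKM with control siRNA and at 55.4 and 70.2 FPKM with siRNA 28 and 30. Values overlapped in A549 and lay slightly below the controls in H2023 and H460. The log2 differences of -0.01 ± 0.16 (SE), -0.25 ± 0.16 and -0.29 ± 0.22 had adjusted p of 0.991, 0.479 and 0.411.

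PRDX2, a cytosolic peroxiredoxin known for its abundance in red blood cells, was listed at 0.0338 FPKM in 1 A549 control library and at 0 in the other 3 A549 libraries. In H2023, PRDX2 was at 105 and 85.7 FPKM with control siRNA and at 113 and 109 FPKM with siRNA 28 and 30. In H460, PRDX2 was at 169 and 129 FPKM with control siRNA and at 203 and 154 FPKM with siRNA 28 and 30. PRDX2 was therefore not tested in A549 or in any fit of all 3 lines. The log2 differences of 0.22 ± 0.17 (SE) in H2023 and 0.26 ± 0.26 in H460 did not pass (adjusted p = 0.566 and 0.527). Of all genes, 2 were under 0.1 FPKM in the 4 A549 libraries and above 50 FPKM in the 8 others, PRDX2 and the ribosomal protein gene RPS29, which was named after its values were seen. The authors' mean normalised count of RPS29 in A549 was 6898, so that its FPKM of 0 did not reflect a lack of reads, whereas the PRDX2 values were 1.25 for A549, 1438 for H2023 and 2056 for H460. PRDX2 was thus near 0 in A549 in both kinds of file.

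**Figure D2:**
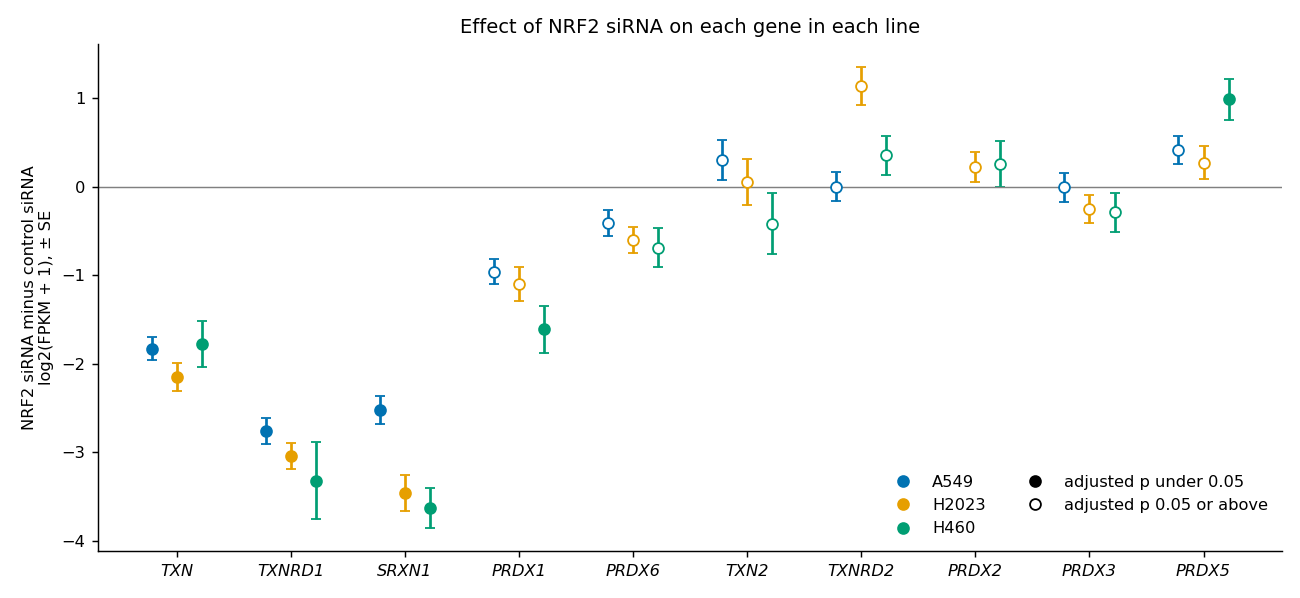
Difference between NRF2 siRNA and control siRNA (y axis, log2(FPKM + 1), bars ± SE) for each gene (x axis) in A549 (blue), H2023 (yellow) and H460 (green), with filled circles for an adjusted p under 0.05. TXN, TXNRD1 and SRXN1 lay between -1.77 and -3.63, whereas TXN2 and PRDX3 lay between -0.41 and 0.30; PRDX2 has no A549 value because it was not tested there.

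In H2023 and H460, but not in A549, calls of members were lost when 1 control library was left out, along with nearly all calls over all genes. Without the H2023 control library numbered 0 no member was called in H2023, nor was any of 13720 genes. Without that numbered 1, TXN lost its call (adjusted p = 0.0868), whereas TXNRD1 and SRXN1 stayed past the threshold, among 12 genes called in all. Without either H460 control library no member was called in H460, the adjusted p of SRXN1 being 0.0620 and 0.0580, and 0 and 5 of all genes were. With no filter on low values no gene at all was called in any line and the adjusted p of SRXN1 was 0.118, 0.165 and 0.108 in A549, H2023 and H460. In H460, leaving out mitochondrially encoded genes moved the median over all genes from -0.01 to 0.12 and the split of calls from 922 lower and 957 higher to 596 lower and 1198 higher, with 4 members lower and 1 higher under both scalings.

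In the fit of all 12 libraries, in which the effect was averaged over the lines, 5 of the 9 members tested were lower and 2 higher. The background was high, at 14.5% lower and 15.2% higher of 11571 genes. Earlier simulated data had shown this average test to be optimistic. It therefore stands beside the tests per line and not in place of them. SRXN1 had the most negative average at -3.20 ± 0.11 (SE, log2), with an adjusted p of 8.76e-08. TXNRD1 averaged -3.04 ± 0.19 (adjusted p = 6.73e-06) and TXN averaged -1.91 ± 0.10 (adjusted p = 1.75e-06). PRDX1 averaged -1.22 ± 0.11 (adjusted p = 5.80e-05) and PRDX6 averaged -0.56 ± 0.09 (adjusted p = 0.00139). PRDX5 averaged 0.56 ± 0.10 (adjusted p = 0.00337) and TXNRD2 averaged 0.50 ± 0.10 (adjusted p = 0.00624). PRDX3 (-0.18 ± 0.10, adjusted p = 0.182) and TXN2 (-0.02 ± 0.19, adjusted p = 0.950) did not pass. The 5 members that fell were also those whose groups did not overlap on the lower side in every line, as held for 7.2% of genes, and PRDX5 did so on the higher side, as held for 8.18% of genes. The split over all genes shifted from 1674 lower and 1763 higher to 1287 lower and 2229 higher after median centring, with 5 members lower and 2 higher in either case.

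In limma, 0 of 9 members passed the test of a difference in effect between lines, against 2.51% of 11571 genes, and 3 of 9 differed at an unadjusted p under 0.05, against 21.2% of genes. TXNRD2 came nearest with an adjusted p of 0.0730, followed by SRXN1 with 0.0806. The effect on TXNRD2 was 1.13 ± 0.26 (SE, log2) higher in H2023 than in A549 (adjusted p = 0.424), and that in H460 differed from that in H2023 by -0.78 ± 0.26 (adjusted p = 0.111). The effect on SRXN1 in H460 differed from that in A549 by -1.11 ± 0.28 (adjusted p = 0.0567).

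Because both genes of a pair were measured in the same library, the cytosolic and mitochondrial forms were compared as ratios of FPKM. TXN exceeded TXN2 by 20.6 and 20.2 times in A549 control libraries and by 3.71 and 5.68 times with siRNA 28 and 30. In H2023 the ratio of TXN to TXN2 was 12.2 and 12.5 with control siRNA and 2.16 and 3.34 with siRNA 28 and 30. In H460 it was 7.26 and 10.6 with control siRNA and 2.92 and 4.01 with siRNA 28 and 30. The control and NRF2 siRNA libraries did not overlap in any line. The ratio of TXNRD1 to TXNRD2 was 58.3 and 52.7 in A549 control libraries and 7.01 and 9.43 with siRNA 28 and 30. In H2023 it was 99.5 and 80.3 with control siRNA and 4.90 and 4.24 with siRNA 28 and 30. In H460 it was 40.8 and 40.1 with control siRNA and 1.93 and 4.91 with siRNA 28 and 30. TXNRD1 thus remained the more abundant reductase transcript in all 12 libraries.

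**Figure D3:**
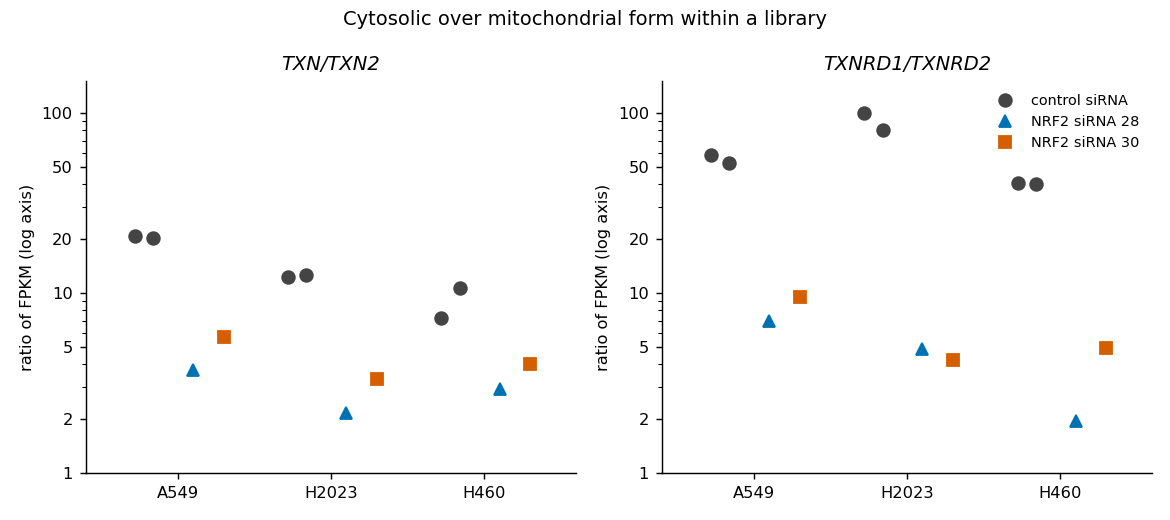
Ratio of FPKM of the cytosolic to the mitochondrial form (y axis, log scale) for thioredoxin (left) and thioredoxin reductase (right) in each library of the 3 lines (x axis), with symbols for control siRNA, siRNA 28 and siRNA 30. All NRF2 siRNA libraries lay below the control libraries of their line, and the lowest ratio, 1.93, was that of TXNRD1 to TXNRD2 in H460 with siRNA 28.

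The share of PRDX1 among the peroxiredoxin transcripts was lower and that of PRDX5 higher with NRF2 siRNA in each line, as a description with no test. Of the summed FPKM of the 5 peroxiredoxin genes of the system, which leaves out PRDX4 (136, 41.8 and 112 FPKM on average in A549, H2023 and H460 control libraries), PRDX1 took 59.6% and 60.1% in A549 control libraries and 38.6% and 43.1% with siRNA 28 and 30. PRDX1 took 60.8% in both H2023 control libraries and 37.1% and 45.7% with siRNA 28 and 30, and it took 57.0% and 64.5% in H460 control libraries and 28.5% and 33.1% with siRNA 28 and 30. The share of PRDX5 was 21.1% and 20.5% in A549 control libraries against 38.0% and 35.5% with siRNA 28 and 30. In H2023 the PRDX5 share was 19.1% and 18.7% against 37.8% and 29.0%, and in H460 it was 12.5% and 9.35% against 34.7% and 31.9%. With siRNA 28, PRDX5 thus took a larger share than PRDX1 in H460 and, by a small margin, in H2023. The share of PRDX2 was 6.77% and 6.13% in H2023 control libraries against 11.3% and 10.5% with siRNA 28 and 30, and 9.89% and 6.82% against 17.7% and 13.04% in H460, and it was at or near 0 in A549. The share of PRDX6 stayed between 8.86% and 16.2% over all libraries. The sum itself was lower with NRF2 siRNA, at 954 and 858 against 1240 and 1160 FPKM in A549, 1003 and 1031 against 1557 and 1399 FPKM in H2023, and 1142 and 1184 against 1713 and 1887 FPKM in H460. The ratio of PRDX1 to PRDX3 was 6.29 to 15.8 in control and 2.96 to 9.02 in NRF2 siRNA libraries, and that of PRDX1 to PRDX2, in H2023 and H460, was 5.76 to 9.93 in control and 1.61 to 4.34 in NRF2 siRNA libraries.

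**Figure D4:**
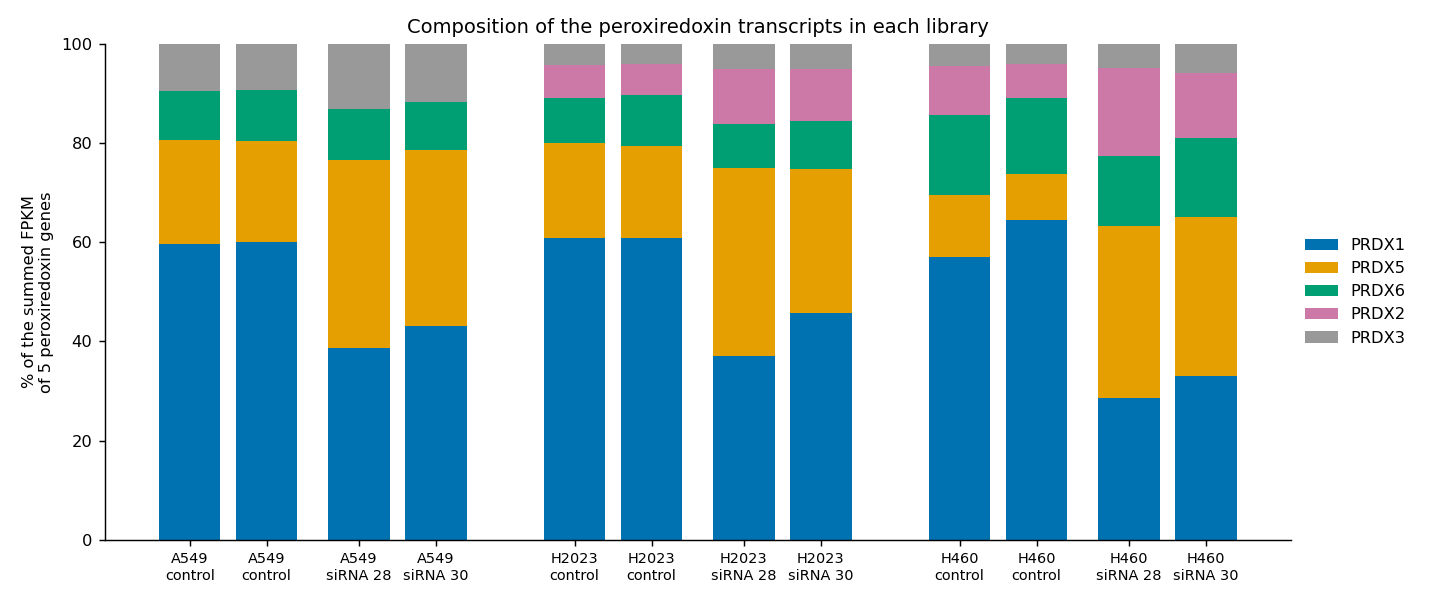
Share of each gene (y axis, %) in the summed FPKM of 5 peroxiredoxin genes for each of the 12 libraries (x axis). PRDX1 (blue) took 57.0% to 64.5% of the sum in control libraries and 28.5% to 45.7% in NRF2 siRNA libraries, where the share of PRDX5 (yellow) was larger than in the control libraries of the line; PRDX2 (pink) is absent from A549 because it was listed at or near 0 there.

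The 2 NRF2 siRNAs were compared with each other in the 6 NRF2 siRNA libraries, with line as a covariate, to ask whether both acted alike. Each siRNA carried the same library number in every line. A difference between the siRNAs thus cannot be told apart from one between library numbers. None of the 9 members tested differed at an adjusted p under 0.05 in limma, against 0.112% of genes lower and 0.415% higher with siRNA 28, and 2 differed at an unadjusted p under 0.05, a share near the 22.5% of all genes. TXN2 was higher with siRNA 28 by 0.72 ± 0.13 (SE, log2), with an adjusted p of 0.0579. SRXN1 was higher with siRNA 28 by 0.34 ± 0.13 (adjusted p = 0.195). TXNRD1 differed by -0.52 ± 0.26 (adjusted p = 0.296), mostly in H460, and the other 6 members by -0.20 to 0.22. When the spread was taken from all 12 libraries, TXN2 (adjusted p = 0.0172) and TXNRD1 (adjusted p = 0.0197) passed the threshold, as did 6.27% of all genes on the lower and 9.26% on the higher side, so that 1 of 9 members in each direction was near the background. Leaving out mitochondrially encoded genes changed the split of calls over all genes from 13 lower and 48 higher to 294 lower and 283 higher, with 0 members among them. TXN, TXNRD1, SRXN1, PRDX1 and PRDX6 lay below both controls with each siRNA in each line.

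Several relatives with a thioredoxin fold, chosen after their values were seen, behaved otherwise. TXNDC5, an oxidoreductase of the endoplasmic reticulum, stood at 80.1 and 71.5 FPKM in A549 control libraries, at 80.5 FPKM with siRNA 28 and at 35.7 FPKM with siRNA 30. In H2023, TXNDC5 was at 39.6 and 37.5 FPKM with control siRNA, at 44.5 FPKM with siRNA 28 and at 7.43 FPKM with siRNA 30. In H460, TXNDC5 was at 84.2 and 92.7 FPKM with control siRNA, at 82.7 FPKM with siRNA 28 and at 9.37 FPKM with siRNA 30. TXNDC5 was thus low in the siRNA 30 libraries only, although its difference between siRNAs of 2.20 ± 0.33 (SE, log2) had an adjusted p of 0.0515. TXNDC12 (1.82 ± 0.24, adjusted p = 0.0469) and TXNDC9 (1.34 ± 0.18, adjusted p = 0.0486) were higher with siRNA 28 than with siRNA 30. RRM1, the large subunit of ribonucleotide reductase, a client of thioredoxin, differed by 1.54 ± 0.30 with an adjusted p of 0.0627. No gene passed this comparison without the variance trend, with no filter on low values, or when any 1 of the NRF2 siRNA libraries of H2023 or H460 was left out.

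**Figure D5:**
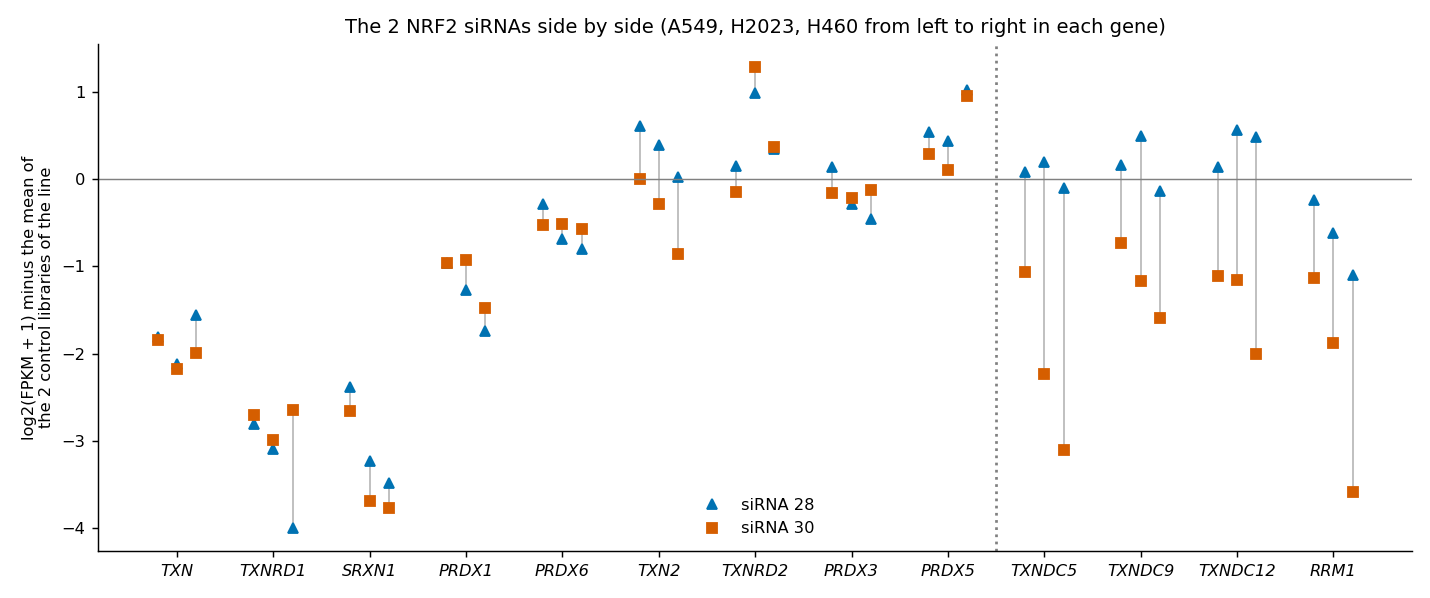
Difference of each NRF2 siRNA library from the mean of the 2 control libraries of its line (y axis, log2(FPKM + 1)) for siRNA 28 (blue triangles) and siRNA 30 (orange squares), with A549, H2023 and H460 from left to right within each gene (x axis). Left of the dotted line both siRNAs lay on the same side for TXN, TXNRD1, SRXN1, PRDX1, PRDX6 and PRDX5; right of it, TXNDC5, TXNDC9, TXNDC12 and RRM1 were lower with siRNA 30 in every line.

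The order of the levels with control siRNA was alike in the 3 lines. PRDX1 was at rank 1 in each, but its range overlapped that of the next gene, TXNRD1 in A549 and TXN in H2023. In H460 the order was PRDX1, TXN and TXNRD1, with no overlap between neighbours. SRXN1 followed at rank 4 in H2023 and H460 and at rank 5 in A549, where PRDX5 was above it, and in H460 its range overlapped that of PRDX6. TXN2 was at rank 8 in each line, and in H2023 its range overlapped that of PRDX3. TXNRD2 was the lowest member in H2023 and H460, at 7.02 to 8.69 and 18.7 to 19.0 FPKM, and in A549 only PRDX2 was below it. TXNRD2 was 1.17 ± 0.20 (SE, log2) higher in H460 than in H2023 control libraries (adjusted p = 0.00498), and PRDX6 was 0.98 ± 0.17 higher (adjusted p = 0.00499). They were the 2 of 10 members called higher, against 15.7% of 12408 genes, and 0 were called lower, against 13.2%. At an unadjusted p under 0.05, 4 of 10 members differed, a share near the 41.0% of all genes, the others being PRDX2 (0.63 ± 0.22, adjusted p = 0.0628) and PRDX5 (-0.52 ± 0.20, adjusted p = 0.0869). Without the H2023 control library numbered 0, the adjusted p of TXNRD2 was 0.0560. PRDX5 passed on the lower side after median centring (-0.73, adjusted p = 0.0233), under which the median over all genes went from 0.06 to -0.13 and the split of calls from 1644 lower and 1943 higher to 2146 lower and 1229 higher.

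The genes whose level followed SRXN1, TXNRD1, TXN or PRDX1 most closely over 12 libraries, after subtraction of the control mean of the line, were taken from 11571 genes. PRDX6, which also fell on average, was not searched in this way. The points share their lines and the contrast between groups, so the correlations are a description. For SRXN1 they were PGD (r = 0.990), GCLM (0.988), ME1 (0.985), AKR1B10 (0.984) and OSGIN1 (0.983). For TXNRD1 they were TALDO1 (r = 0.989), UGDH (0.987), SLC6A6 (0.985), GAPDH (0.984) and MAFG (0.983). For TXN they were NR0B1 (r = 0.996), PTGR1 (0.990), CYP4F11 (0.982), GCLC (0.979) and ENSG00000231683 (0.977), for which no symbol was found. For PRDX1 they were HECW1 (r = 0.991), VCP (0.986), GCLM (0.983), GMEB2 (0.980) and GSTP1 (0.979).

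Among enzymes that supply NADPH to the thioredoxin reductases, 5 were measured, of which 2 fell in each line (PGD and ME1) and 3 on average (IDH1 in addition), with 0 higher. For these lists too, the share of all genes called on average was 14.5% lower and 15.2% higher, and in H460 6.86% and 7.12%. PGD, an enzyme of the pentose phosphate pathway, retained 33.6%, 23.7% and 20.3% of its control mean in A549, H2023 and H460, and the malic enzyme ME1 retained 23.9%, 18.2% and 12.1%. IDH1 fell by 0.79 ± 0.10 (SE, log2) on average (adjusted p = 0.000649). The median of the 5 on average was -0.79, against -0.01 over all genes. The parallel glutathione arm held 6 genes, of which 4, 3 and 5 fell in A549, H2023 and H460 and 5 on average. GCLM, a subunit of the enzyme that starts glutathione synthesis, retained 13.6%, 10.3% and 4.78% of its control mean. GCLC averaged -2.47 ± 0.14 (adjusted p = 3.20e-06), glutathione reductase GSR -1.67 ± 0.11 (adjusted p = 9.45e-06), and the cystine carrier SLC7A11 -2.26 ± 0.21 (adjusted p = 8.26e-05). NQO1, a quinone reductase, retained 19.3%, 11.1% and 26.7% of its control mean.

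The selenocysteine insertion machinery, on which the reductases depend as selenoproteins, passed in none of its 5 genes, in any line or on average, with a median average difference of -0.02. Of 12 relatives with a thioredoxin fold, none was called in A549 or H2023, GLRX3 was lower in H460, and 4 were lower on average. These were GLRX3 (-0.67 ± 0.13, SE, log2, adjusted p = 0.00369), the glutaredoxin GLRX (-0.73 ± 0.14, adjusted p = 0.00389), TXNL1 (-0.41 ± 0.08, adjusted p = 0.00470) and GLRX5 (-0.47 ± 0.10, adjusted p = 0.00622). GLRX stood at 104% of its control mean in A549, 32.2% in H2023 and 64.9% in H460, but the difference between lines did not pass (adjusted p = 0.0580). PRDX4, the peroxiredoxin of the endoplasmic reticulum, did not pass in any line, with an average of 0.22 ± 0.15 (adjusted p = 0.303). TXNRD3, a reductase with a glutaredoxin domain that is best known from testis, stood at 0.934 to 2.75 FPKM and did not pass (0.14 ± 0.11, adjusted p = 0.341).

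Of 12 clients and regulators of thioredoxin, none was called in A549 or H2023, MSRB2 and SESN3 were higher in H460, and on average 2 were lower, a share near that of all genes (14.5%), and 4 higher (15.2% of all genes). MSRB2, a mitochondrial methionine sulfoxide reductase, averaged 0.63 ± 0.13 (SE, log2, adjusted p = 0.00603), whereas its selenoprotein relative MSRB1 averaged -0.59 ± 0.14 (adjusted p = 0.0121). SESN1, a sestrin, averaged 0.42 ± 0.11 (adjusted p = 0.0152). RRM1 averaged -1.42 ± 0.39 (adjusted p = 0.0202). The median of this list on average was 0.18, against -0.01 over all genes. TXNIP, the thioredoxin-binding inhibitor, could not be matched by identifier and was not analysed here.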

How the data were processed

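RNA was sequenced from 12 libraries of A549, H2023 and H460 cells, 2 per group. The authors deposited FPKM per gene and library. The submitters' notes name STAR 2.5.3a, Cuffnorm, HTSeq and DESeq2 with hg19, whereas the study's methods name TopHat and Cufflinks; FPKM are scaled to transcript length and to the mapped fragments of the library, whether libraries were scaled further is not given in the sources used here, and the counts and absolute depth per library are unknown. The authors also deposited a mean normalised count per gene and line, a signal value. It was used to examine values of 0 and was set beside the FPKM of SRXN1 and TXN. The authors' fold changes and p-values were not used. A total of 12710 FPKM under 1e-06 were set to 0.

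Genes at 1 FPKM or more in at least 2 libraries of a line (of every line in fits of several lines) were tested with limma 3.58.1 in R 4.3.3 on log2(FPKM + 1), with the prior variance following mean expression and Benjamini-Hochberg adjustment over all genes tested (threshold 0.05). This scale understates changes of low genes. Each line was fitted on its 4 libraries, leaving 2 residual degrees of freedom. The average effect and differences between lines came from 12 libraries with 6 group means, the siRNA comparison from the 6 NRF2 siRNA libraries, and the comparison of H460 with H2023 from their 8 libraries. The scripts were tested on simulated data. Low values were compared between libraries of a line to estimate relative depth. Ratios, shares and correlations carry no test. Positions are from GENCODE lifted to GRCh37, and 96.1% of identifiers were matched. Figures used Python 3.11.15 and matplotlib 3.10.9.

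Members and lists were chosen with earlier results of these data known. All members were described, and from each list at most 4 genes with the smallest p for the average effect, besides a few set genes. PECAM1 was not analysed here. A gene of the list of NADPH suppliers and a gene that overlaps a member are not reported here, and the counts and median of that list leave the former out. Alternatives were a pseudocount of 0.1, no filter, leaving out mitochondrially encoded genes, median centring, no variance trend, leaving out each library, other sets of libraries, weights per line and the library number as a block.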

Additional observations from a re-analysis of the deposited data

How the results depend on the processing

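Of 736 comparisons of a member's log2 difference under another setting with its reported value, 658 kept direction and side of the threshold, 26 lost and 21 gained a call, and 31 changed sign, all 31 in genes not called. With no filter on low values, 0 members were lower in A549, H2023 or H460 and 0 were higher in H460, as 0 of all genes were called there. In the 12-library fit 1 member was higher in H2023 (TXNRD2; 2.18% of all genes), and siRNA 28 against 30 gave 1 lower (TXNRD1; 6.27%) and 1 higher (TXN2; 9.26%). Median centring or leaving out mitochondrially encoded genes made 1 member lower in H460 than in H2023 under control siRNA (17.3% and 16.8% of all genes), and the 4 control libraries alone made 1 lower and 4 higher (19.3% and 23.4%).

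The labels do not say that a library number marks a shared batch. Deviations of same-numbered libraries correlated at -0.03, 0.31 and 0.16 in A549, H2023 and H460, so that A549 gave no sign of pairing and the other lines did, and the numbers were not taken to pair the samples. With the replicate block, 1 member was higher in H2023 (TXNRD2, adjusted p = 0.0324), PRDX1 passed there (adjusted p = 0.0211), and calls over all genes went from 94, 128 and 1879 to 90, 711 and 3177 in A549, H2023 and H460 and from 290 to 76 for the difference between lines.

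Leaving out 1 library at a time gave 0 to 5 members lower and 0 to 1 higher in H2023, 0 to 5 lower and 0 to 1 higher in H460, 0 to 1 differing between lines in the test of all 3, between H460 and A549 and between H460 and H2023, and 1 to 3 higher in H460 than in H2023 under control siRNA. It always gave 3 lower in A549 and, on average over the lines, 5 lower and 2 higher. A lone library was assumed to vary like the other groups. In H2023 and H460, calls over all genes moved in the same way as the member counts. They were few or none without a control library, and more than in the reported fit without an NRF2 siRNA library. The higher and lower member counts there are thus not particular to the system. Signs changed across 0 for TXN2 (-0.0026 to 0.61 in A549, -0.28 to 0.39 in H2023, -0.86 to 0.029 in H460, -0.17 to 0.13 on average), TXNRD2 in A549 (-0.15 to 0.15) and PRDX3 in A549 (-0.16 to 0.15), and between siRNAs for TXNRD2 (-0.16 to 0.14), PRDX3 (-0.20 to 0.12) and PRDX6 (-0.19 to 0.037). Median centring and leaving out mitochondrially encoded genes gave 0.056 and 0.029 for TXN2 on average, and -0.018 and -0.020 for TXN and -0.089 and -0.092 for TXNRD1 in H460 against H2023 under control siRNA. Median centring gave 0.00072 for PRDX3 in A549, and leaving out mitochondrially encoded genes -0.10 for TXNRD2 in A549. The cause of these changes was not tested.

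Over all genes, the number of calls ranged from 0 to 272 in A549, 0 to 1532 in H2023, 0 to 3850 in H460, 2318 to 3795 on average, 3 to 843 for the difference between lines, 0 to 1797 between siRNAs and 1217 to 5301 for H460 against H2023 under control siRNA. Absolute depth is unknown, so no limit is set on genes near 1 FPKM such as TXNRD3. With 2 libraries per group, a value past no threshold does not show that a gene kept its level.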

Other observations

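KEAP1, the negative regulator of NRF2, stood at 62.6%, 41.1% and 31.9% of its control mean in the NRF2 siRNA libraries of A549, H2023 and H460. It passed the threshold in H460 (adjusted p = 0.0158) and not in A549 (adjusted p = 0.145) or H2023 (adjusted p = 0.0622), and averaged -1.18 ± 0.09 (SE, log2) over the lines (adjusted p = 2.77e-05). In H2023 the 2 control libraries held 106 and 93.3 FPKM of KEAP1 and the siRNA 28 and 30 libraries 35.9 and 45.8 FPKM.

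The authors' mean normalised counts for A549, H2023 and H460 were 187, 302 and 205 for SRXN1 and 7323, 6171 and 6802 for TXN. With control siRNA the mean FPKM of SRXN1 was 176, 399 and 301 and that of TXN was 406, 806 and 920.3. These values are unlike in kind, since the authors' mean covers control and NRF2 siRNA libraries together and is not scaled to transcript length, so they are given side by side only. SRXN1 overlaps ENSG00000270299 on the same strand, and how the counting treated reads of overlapping genes is not given in the sources used here.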
